A study of Zea mays with 8 samples.

Results

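D8 (GRMZM2G144744), d9 (GRMZM2G024973) and Dwarf1 (GRMZM2G036340), maize genes of gibberellin signalling and synthesis, were followed through all libraries of the series. They were chosen by gene ID, with earlier results of these data known. All 3 were found in both deposited tables, among 23586 IDs that the tables share and 28667 IDs in either. Gibberellins are plant hormones that promote stem, leaf and floral growth. D8 and d9 encode DELLA proteins, nuclear repressors of growth that belong to the GRAS family of regulators and that are broken down when the hormone binds its receptor. Dominant mutations that make the D8 or d9 protein resistant to the hormone give dwarf maize plants. Dwarf1 encodes a gibberellin 3-oxidase, which carries out the last step to the bioactive hormone, and maize plants that lack it are dwarf. DELLA activity is set largely through protein stability, which a transcript level does not measure.

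Plants were of the inbred line B73, grown in a greenhouse to silk emergence. The 4 groups were well-watered ovaries, drought-stressed ovaries, well-watered basal leaf meristem and drought-stressed basal leaf meristem, with 2 libraries in each group and 8 in all. In the drought groups irrigation was withheld for 2 to 3 days before hand pollination, and every sample was taken 24 hours after pollination (1 day), the leaf samples from the 3 youngest leaves. The labels call the 2 libraries of a group biological replicates without naming separate plants, while the series text counts 1 biological replicate per condition. The spread behind each p-value is thus that between libraries and may be technical.

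Values are FPKM, fragment numbers scaled to gene length and sequencing depth, as deposited by the authors in 1 table per tissue. Absolute read depth is unknown. Relative depths were sought from ratios of whole numbers up to 8, within 0.001 on the log2 scale, among genes under 0.4 FPKM in both libraries of a pair. In the best reading 13.5% to 20.1% of such genes had such a ratio, control 2 was 1.49 times as deep as control 1 in the ovary and 1.40 times in the leaf, and each drought library lay between 0.976 and 1.045 times control 1 of its tissue. The ovary controls had 132 genes at that reading, 120 at one 2 times as deep or shallow and a median of 10 over all readings, so a depth off by a factor of 2 cannot be told apart. The FPKM of ovary control 2 summed to 9212839 against 661161 to 843595 in the other 7 libraries, and to 733453 without its 2 highest genes. Libraries of the same ovary condition correlated across genes at a Pearson r of 0.971 and 0.984 on log2(FPKM + 1), and libraries of different ovary conditions at 0.722 to 0.776 (genes are not independent replicates). In the leaf r was 0.965 and 0.988 within a condition and 0.908 to 0.950 between conditions. The 8 floral MADS-box markers matched summed to 1227 and 1089 FPKM in the ovary controls and to 813 and 977 under drought. Only 1 of them, ZAG1, was listed in the leaf table, at 0.238 to 0.447 FPKM. Of the 13 vegetative meristem and leaf patterning markers, 8 were listed in the leaf table, where they summed to 68.4 to 82.3 FPKM. The meristem genes kn1, gnarley1 and lg3 were not among these 8. Endosperm and pollen marker names matched no ID and were not used here.

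In the ovary, D8 and Dwarf1 transcripts fell under drought, while d9 did not pass the test. D8 stood at 41.4 and 55.7 FPKM in the well-watered ovaries and at 18.8 and 26.2 FPKM in the droughted ones. Both droughted libraries lay below both controls, as they did for 42.2% of the genes tested in the ovary, and the control mean was 2.15 times the drought mean. The log2 change of D8, on the log2(FPKM + 1) scale used throughout for tests, was -1.08 ± 0.23 (limma SE, 2 libraries each, 95% interval -1.65 to -0.51, adjusted p by limma = 0.0109). Here and below, the SE of a log2 change combines the spread between libraries of the gene with that of other genes of similar level. With 1 library left out, limma did not call D8 in any of the 4 cases. Leaving out control 1 gave a log2 change of -1.29 (limma adjusted p = 0.0575) and leaving out control 2 one of -0.87 (0.113). Leaving out drought 1 gave -0.85 (limma adjusted p = 0.106), and leaving out drought 2 gave -1.30 (0.0592).

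Transcripts of d9, the other DELLA gene, were at 22.4 and 32.2 FPKM in the well-watered ovaries and at 31.7 and 40.5 FPKM under drought. The higher control lay just above the lower drought library, so the conditions overlapped. The log2 change was 0.40 ± 0.23 (SE from 2 libraries each; adjusted p by limma = 0.185), and its 95% interval ran from -0.16 to 0.97.

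Dwarf1 was much less abundant than the DELLA genes per length. It stood at 2.11 and 3.11 FPKM in the well-watered ovaries and at 0.211 and 0.347 FPKM in the droughted ones. Both droughted libraries were thus below both controls, as for 42.2% of genes tested. The control mean was 9.35 times the drought mean. The log2 change was -1.49 ± 0.22 (SE from 2 libraries each; adjusted p by limma = 0.00268), a scale that understates the change of a gene near 1 FPKM. At a pseudocount of 0.1 FPKM in place of 1, the log2 change was -2.84 (limma adjusted p = 0.0021), and at 0.01 FPKM it was -3.19 (0.00203). Unlike D8, Dwarf1 passed limma with each ovary library left out in turn, with a log2 change between -1.69 and -1.28 and an adjusted p between 0.0168 and 0.0433.

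These 2 falls among 3 genes stand in a tissue in which limma called 53.1% of 23770 genes tested, 29.5% as falling. By size of change, 68.7% of the genes tested in the ovary changed less than D8 in either direction, 79.9% less than Dwarf1 and 33.1% less than d9. The median log2 change of all genes tested was -0.05. Beside these changes, 7 of 7 lignified vascular markers tested fell, their sum over 8 listed IDs going from 1063 and 1905 FPKM to 82.5 and 118 FPKM, or from 136 and 148 to 39.1 and 40.3 FPKM without pal3. Of these IDs 2 share the reference entry of cesa11, and the laccase gene lac4 was at 0 in both drought libraries. Of 13 vegetative meristem and leaf patterning markers, 9 rose and none fell, with sums of 113 and 94.5 FPKM in the controls and 229 and 223 FPKM under drought. The leaf patterning gene rld1 was at 0 in both controls. Of the 8 floral markers, 2 rose and 3 fell. The part of tissue composition in the changes of D8 and Dwarf1 was not tested, and in whole tissue fewer cells of a type and less RNA per cell cannot be told apart.

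**Figure D1:**
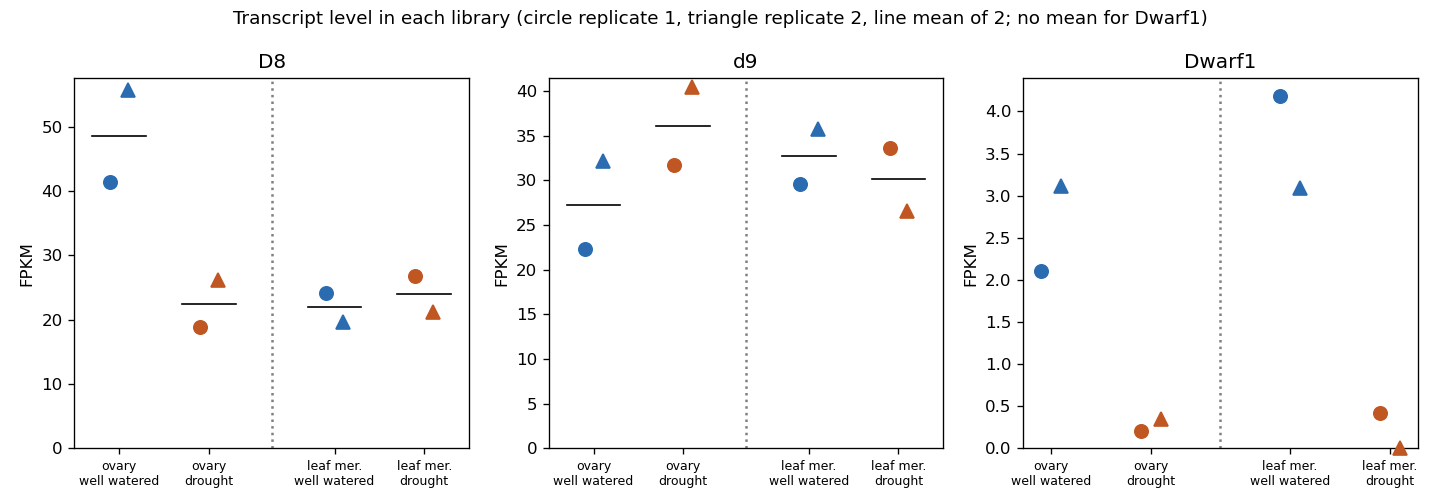
FPKM (linear axis from 0) of D8, d9 and Dwarf1 in each of the 8 libraries, blue for well watered and orange for drought, with the mean of the 2 libraries as a line for D8 and d9. D8 was highest in the well-watered ovary at 41.4 and 55.7 FPKM, d9 overlapped between conditions in both tissues, and Dwarf1 was under 0.45 FPKM in every droughted library.

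In the leaf meristem, Dwarf1 fell, and neither DELLA gene passed the test. Dwarf1 stood at 4.18 and 3.09 FPKM in the well-watered leaf and at 0.424 FPKM in drought 1, and it was listed at 0 in drought 2. Both drought libraries lay below both controls, as they did for 35.7% of the genes tested in the leaf. The log2 change was -1.95 ± 0.26 (SE from 2 libraries each; adjusted p by limma = 0.0420), and 0.62% of the 22418 genes tested had a lower one. In both tissues Dwarf1 reached the minimum mean of 1 FPKM through its well-watered libraries. With no such minimum its adjusted p by limma was 0.0377 in the leaf and 0.00219 in the ovary. Limma called 3.26% of the genes tested in the leaf, 0.906% as falling, and 1 of the 3 genes fell. The 3 genes were chosen with earlier results of these data known, so this count is a description and no test against that share.

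The leaf call of Dwarf1 was kept under quantile normalization, upper quartile scaling, a fit without trend and a joint fit of both tissues (limma adjusted p from 0.00464 to 0.0370), and it was lost with any leaf library left out. Leaving out control 1 gave a log2 change of -1.78 (limma adjusted p = 0.0520) and leaving out control 2 one of -2.12 (0.0852). Leaving out drought 1 gave -2.20 (limma adjusted p = 0.231), and leaving out drought 2 gave -1.69 (0.362). Without either drought library limma called no gene at all in the leaf, at a lowest adjusted p of 0.0671 and 0.0666, with 2526 and 1800 genes at an unadjusted p under 0.05. At a pseudocount of 0.1 FPKM the log2 change of Dwarf1 was -4.01 (limma adjusted p = 0.124) and at 0.01 FPKM -5.77 (0.208), since the 0 of drought 2 then moves away from the 0.424 FPKM of drought 1. Of the 164 genes at 0 in drought 2, 5 were at 0.4 FPKM or more in each of the other 3 leaf libraries and none was at 10 FPKM or more. The depth does not show whether Dwarf1 transcripts were absent there.

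D8 was at 24.2 and 19.7 FPKM in the well-watered leaf meristem and at 26.8 and 21.2 FPKM under drought. Its log2 change was 0.12 ± 0.18 (SE from 2 libraries each; adjusted p by limma = 0.706, 95% interval -0.37 to 0.61). Leaf d9 was at 29.6 and 35.8 FPKM in the controls and at 33.7 and 26.6 FPKM under drought, with a log2 change of -0.12 ± 0.18 (SE from 2 libraries each; adjusted p by limma = 0.710, 95% interval -0.60 to 0.36). For both DELLA genes the conditions overlapped, and the sign of the change turned when single leaf libraries were left out. In the leaf the lignified markers summed to 238 and 161 FPKM in the controls against 187 and 187 under drought, and the vegetative markers to 82.3 and 80.0 against 77.4 and 68.4 FPKM. Limma called none of the 7 lignified and 7 vegetative markers tested there, with 0 at an unadjusted p under 0.05.

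**Figure D2:**
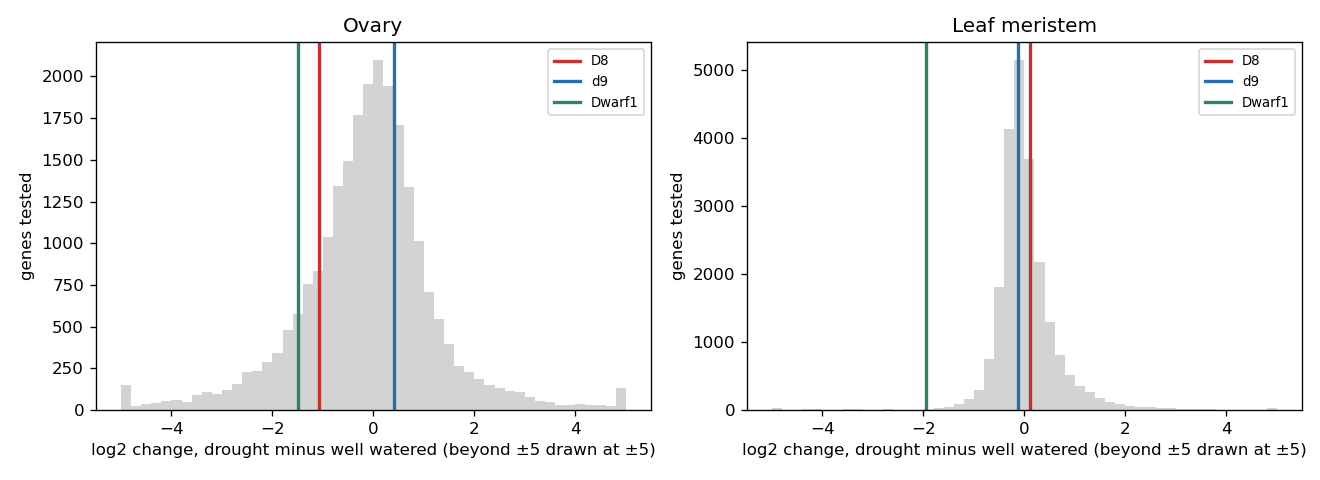
Number of genes tested (vertical axis) by log2 change of FPKM + 1, drought minus well watered (horizontal axis), in the ovary and in the leaf meristem, with coloured lines at D8, d9 and Dwarf1. Dwarf1 lay at -1.49 in the wide ovary distribution and at -1.95 in the narrow leaf distribution, where 0.62% of genes were lower.

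Set side by side, the levels have an order in which most neighbours do not separate. The tables were made separately for the 2 tissues, so levels across them are a description without a test. D8 was highest in the well-watered ovary, at 48.5 ± 10.1 FPKM (SD, n = 2), apart from the leaf under drought at 24.0 ± 4.0, the ovary under drought at 22.5 ± 5.2 and the well-watered leaf at 22.0 ± 3.2, which overlapped. For d9 the order was the droughted ovary at 36.1 ± 6.2 FPKM (SD, n = 2), the well-watered leaf at 32.7 ± 4.3, the droughted leaf at 30.1 ± 5.0 and the well-watered ovary at 27.3 ± 6.9, each overlapping its neighbour. The well-watered leaf and the well-watered ovary overlapped for Dwarf1, as did the droughted groups, with a gap between 0.424 and 2.11 FPKM that separated all well-watered from all droughted libraries. Within a tissue, both droughted libraries lay below both controls for 42.2% of genes tested in the ovary and 35.7% in the leaf. The share of genes separated over all 8 libraries was not computed. Within a library, D8 had a higher FPKM than 68.3% to 90.1% of listed genes, d9 than 71.7% to 84.7% and Dwarf1 than 0% to 33.7%.

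The difference between the tissues was tested directly over all 8 libraries, by subtracting the leaf change from the ovary change. For D8 it was -1.20 ± 0.32 on the log2 scale (SE, 95% interval -1.95 to -0.45, limma adjusted p = 0.0188), so the change of D8 was lower in the ovary than in the leaf. Limma called 47.8% of the 20252 genes tested in this comparison, 24.7% with a lower and 23% with a higher change in the ovary, and D8 was the 1 member of 3 called. The call of D8 was lost without ovary control 2 (log2 difference -0.99, limma adjusted p = 0.0602), ovary drought 1 (-0.97, 0.0592), leaf control 2 (-1.06, 0.0510) or leaf drought 1 (-1.03, 0.0674). The difference for d9 was 0.52 ± 0.32 (SE, limma adjusted p = 0.208, 95% interval -0.22 to 1.26). For Dwarf1 it was 0.46 ± 0.35 (SE, limma adjusted p = 0.309, 95% interval -0.36 to 1.29), so a difference between its falls was not detected with this number of libraries. Under other settings that kept all libraries, the Dwarf1 difference ran from 0.45 to 2.58 (limma adjusted p from 0.134 to 0.381). Its size is thus uncertain for a gene this low under drought.

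The balance of the DELLA pair was compared within each library, where scaling of the library cancels. D8 made up 64.9% and 63.4% of the summed FPKM of D8 and d9 in the well-watered ovaries and 37.3% and 39.3% in the droughted ovaries. D8 was thus the more abundant transcript of the pair in both well-watered ovary libraries and the less abundant one in the other 6 libraries. In the leaf the share of D8 was 45.0% and 35.5% in the controls and 44.4% and 44.3% under drought. The mean log2 ratio of D8 to d9 went from 0.84 to -0.69 in the ovary, a difference of -1.53 at a two-sided exact permutation p = 0.333, the smallest that 2 against 2 libraries allow. In the leaf it went from -0.58 to -0.33, a difference of 0.25 at an exact permutation p = 1.

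Pooled over conditions, the ratio of D8 to d9 did not separate the tissues (ovary minus leaf 0.53, exact permutation p = 0.371, n = 4 per tissue, adjusted over 8 ratio tests 0.495). Pooled over tissues it did not separate drought from control either (-0.64, exact permutation p = 0.286, n = 4 per condition, adjusted 0.495). The drought change of the ratio in the ovary minus that in the leaf, a comparison chosen after the values were seen, was -1.78 with an exact permutation p = 0.167 where 0.0556 is the smallest possible. The sum of both DELLA genes was 63.7 and 87.9 FPKM in the well-watered ovaries and 50.6 and 66.7 FPKM in the droughted ones, which overlapped. In the leaf the sums were 53.8 and 55.5 FPKM against 60.5 and 47.8 FPKM. D8 and d9 are close relatives, and the split between them is uncertain, since the authors' handling of reads that match both is not given in the sources used here.

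**Figure D3:**
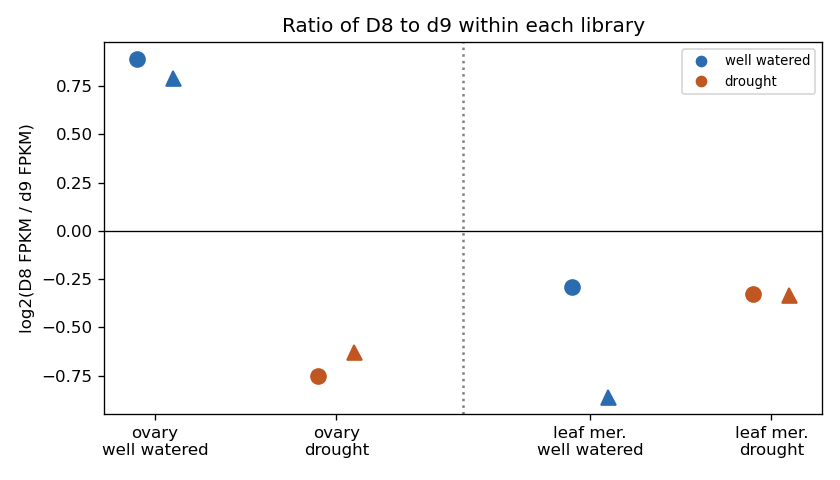
Log2 ratio of D8 FPKM to d9 FPKM in each of the 8 libraries (circle replicate 1, triangle replicate 2), blue for well watered and orange for drought. The well-watered ovaries lie above 0 at 0.89 and 0.79, and the other 6 libraries lie below 0 between -0.86 and -0.29.

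Relative to the 2 DELLA genes, Dwarf1 was at 3.31% and 3.54% of their summed FPKM in the well-watered ovaries and at 0.418% and 0.520% in the droughted ones. In the leaf these values were 7.77% and 5.57% against 0.702% in drought 1, with Dwarf1 listed at 0 in drought 2. The log2 ratio differed by -3.15 (drought minus well watered) over the 3 droughted and 4 well-watered libraries with a value, a set that leaves out leaf drought 2 because Dwarf1 was at 0 there. The exact permutation test gave p = 0.0571, the smallest this design allows, or 0.457 adjusted over the 8 ratio tests. With 1 FPKM added to Dwarf1 and 1 FPKM to the DELLA sum, all 8 libraries entered and the difference was -1.53 (exact permutation, adjusted p = 0.229). Between tissues the log2 ratio differed by -1.30 (ovary minus leaf, exact permutation p = 0.286, adjusted 0.495) without leaf drought 2. That set holds 4 ovary and 3 leaf libraries, with fewer droughted ones in the leaf, so the value mixes the drought change with the tissue difference. Subtracting same-numbered libraries of the same condition, which leaves out ovary drought 2 as well, gave -0.88. With 1 FPKM added and all 8 libraries, the log2 ratio differed between tissues by -0.41 (exact permutation, adjusted p = 0.620). Leaving out 1 library in turn with no FPKM added, and so always without leaf drought 2, gave -0.65 to -2.38. The -2.38 came without leaf drought 1, which sets all ovary libraries against the well-watered leaf alone.

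Other names listed for the pathway were taken from the reference. They were an1, d3, an2 and CPS1, of which an2 is known for defence diterpenoids and the reference gives no role for CPS1. Of these 4, 3 were tested in each tissue. In the ovary limma called none of them, with 0 at an unadjusted p under 0.05, and their median log2 change of 0.01 was that of CPS1. In the leaf limma called none either, with 2 lower at an unadjusted p under 0.05, and their median was -0.71, against -0.06 for all genes tested. With Dwarf1 and the DELLA genes included, none of 6 tested in the ovary rose and 2 fell, where 29.5% of all genes tested fell. In the leaf none of 6 tested rose and 1 fell, where 0.906% fell. These lists were chosen with earlier results of these data known, so the counts are a description. No name for a gibberellin receptor or a gibberellin 2-oxidase was matched, and those genes were not analysed here.

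The gene an1 (anther ear1, GRMZM2G081554) encodes an ent-copalyl diphosphate synthase, at the entry to gibberellin synthesis. In the leaf it was at 45.0 and 63.8 FPKM in the controls and at 28.5 and 20.0 FPKM under drought. There both drought libraries were below both controls, as for 35.7% of genes tested (log2 change -1.13 ± 0.26, limma adjusted p = 0.123). In the ovary an1 was at 2.82 and 0.882 FPKM in the controls and at 5.68 and 3.20 FPKM under drought, both above both controls as for 37.8% of genes tested (log2 change 0.98 ± 0.40, limma adjusted p = 0.0867). The ovary change of an1 minus its leaf change was 2.11 ± 0.55 (limma adjusted p = 0.0165), but 1.78 (0.0553) without ovary drought 1 and 1.87 (0.0619) without leaf drought 2. The ovary change of an1 passed limma under quantile normalization (1.19, adjusted p = 0.0393).

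A later step belongs to d3 (dwarf3, GRMZM2G093195), whose cytochrome P450 of the CYP88A class oxidizes ent-kaurenoic acid. In the leaf d3 was at 46.2 and 31.1 FPKM in the controls and at 24.5 and 21.1 FPKM under drought, again without overlap (log2 change -0.71 ± 0.23, limma adjusted p = 0.190). In the ovary d3 was at 0.530 to 1.41 FPKM, with a mean under 1 FPKM, and was not tested. In the leaf, then, an1, d3 and Dwarf1 each had both drought libraries below both controls, as had 35.7% of all genes tested there, and only Dwarf1 passed limma.

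The remaining pathway names gave little. The gene an2 (GRMZM2G044481), an ent-copalyl diphosphate synthase of defence diterpenoids in maize, was at 4.96 and 0.199 FPKM in the well-watered ovaries and at 0.204 and 0.0953 FPKM under drought (log2 change -1.22 ± 0.71, limma adjusted p = 0.193). The 2 controls of an2 differed widely, and without control 2 limma called it (log2 change -2.38, adjusted p = 0.0127). CPS1 (GRMZM2G156565), whose role the reference does not give, lay between 4.81 and 6.72 FPKM in the ovary and between 6.63 and 8.30 FPKM in the leaf, with log2 changes of 0.01 ± 0.21 and 0.11 ± 0.15 (limma adjusted p = 0.972 and 0.692).

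**Figure D4:**
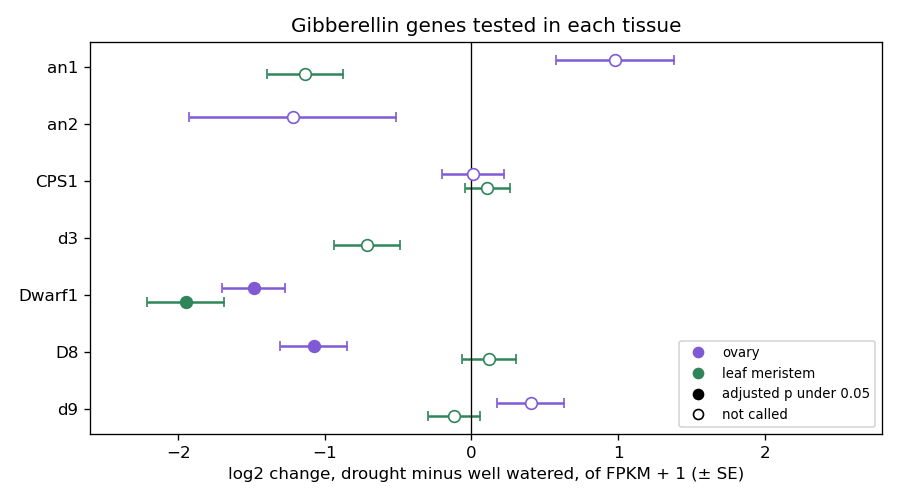
Log2 change of FPKM + 1, drought minus well watered (horizontal axis), with the limma standard error, for each gibberellin gene tested in the ovary (purple) and the leaf meristem (green). Filled points passed an adjusted p of 0.05: Dwarf1 at -1.49 and -1.95 and D8 at -1.08 in the ovary, while an1 lay at 0.98 in the ovary and -1.13 in the leaf without passing.

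D8 and d9 were also set beside other names of the GRAS family. Of 9 further IDs matched, 3 rose and none fell in the ovary, where 23.6% of all genes tested rose and 29.5% fell. Another 3 were lower in the ovary at an unadjusted p under 0.05. In the leaf 1 of 7 tested rose, where 2.35% of all genes tested rose. That match took in names of other proteins: 2 IDs named SCL30, which hold the same values and share 1 reference entry, carry the name of a splicing factor in Arabidopsis, and ham101 shares its entry with the histone acetyltransferase name hac108. Without these, 2 of 6 rose in the ovary, with a median log2 change of 0.16, and 1 of 4 tested rose in the leaf. D8 was the GRAS gene that limma called as falling in the ovary.

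The GRAS gene scl1 (GRMZM2G023872) was at 0.853 and 0.775 FPKM in the well-watered ovaries and at 3.22 and 6.67 FPKM under drought (log2 change 1.65 ± 0.31, limma adjusted p = 0.00685). It was not called without control 1 (adjusted p = 0.0900) or control 2 (0.102). GRAS76 (GRMZM2G028438) was at 3.57 and 4.89 FPKM in the well-watered ovaries and rose to 10.9 and 14.1 FPKM under drought (by 1.37 ± 0.22 on the log2 scale, limma adjusted p = 0.00414), without a call when control 1 (0.0553) or drought 2 (0.0698) was left out. In the leaf GRAS76 was at 3.23 and 4.31 FPKM in the controls and at 6.41 and 6.73 FPKM under drought (log2 change 0.67 ± 0.17, limma adjusted p = 0.144).

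The leaf rise, against a background of 2.35% of genes called as rising, was in GRAS19 (GRMZM2G172657). Its leaf controls were at 0.499 and 0.326 FPKM and its drought libraries at 3.75 and 3.45 FPKM, both above both controls as for 23.5% of genes tested there (log2 change 1.71 ± 0.17, limma adjusted p = 0.0217). Limma did not call it without control 2 (adjusted p = 0.0511), drought 1 (0.279) or drought 2 (0.327). In the ovary GRAS19 was at 2.24 and 1.07 FPKM in the controls and at 0.841 and 0.784 FPKM under drought (log2 change -0.52 ± 0.26, limma adjusted p = 0.143), with a call without control 2 (-0.84, 0.0273). The name ham101 (GRMZM2G044126) rose in the ovary by 0.70 ± 0.18 on the log2 scale (limma adjusted p = 0.0210), with no call when any 1 ovary library was left out (adjusted p from 0.0703 to 0.136). SCR (GRMZM2G131516), the maize SCARECROW gene of ground tissue patterning, was at 6.31 and 8.19 FPKM in the well-watered ovaries and at 4.14 and 4.88 FPKM under drought (log2 change -0.58 ± 0.21, limma adjusted p = 0.0603).

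Genes with the most similar profile were ranked by the Pearson correlation of log2(FPKM + 1), centred on each tissue's mean, over the 8 libraries and among 135 genes with a symbol in the reference (134 for Dwarf1). Closest to D8 were CCOAOMT2 (GRMZM2G099363, r = 0.953), CNR6 (GRMZM2G168257, 0.945) and opr7 (GRMZM2G148281, 0.941). CCOAOMT2 stood at 86.2 and 118 FPKM in the well-watered ovaries and at 20.0 and 23.9 FPKM in the droughted ones, with 43.0 to 52.3 FPKM in the leaf. Closest to d9 were sbp3 (GRMZM2G106798, r = 0.836), mbd106 (GRMZM2G022365, 0.757) and sfp7 (GRMZM2G068212, 0.712). Closest to Dwarf1 were dhar2 (GRMZM2G005710, r = 0.913), MURE (GRMZM2G009070, 0.886) and PER42 (GRMZM2G126261, 0.853). Among all 20251 other genes compared, 163 had an r with D8 of at least that of CCOAOMT2, 168 an r with d9 of at least that of sbp3 and 179 an r with Dwarf1 of at least that of dhar2. Between the members r was 0.533 for D8 and Dwarf1, -0.306 for D8 and d9 and -0.122 for d9 and Dwarf1. These correlations are a description of 8 libraries in which all genes share the same library depth and the same drought contrast.

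**Figure D5:**
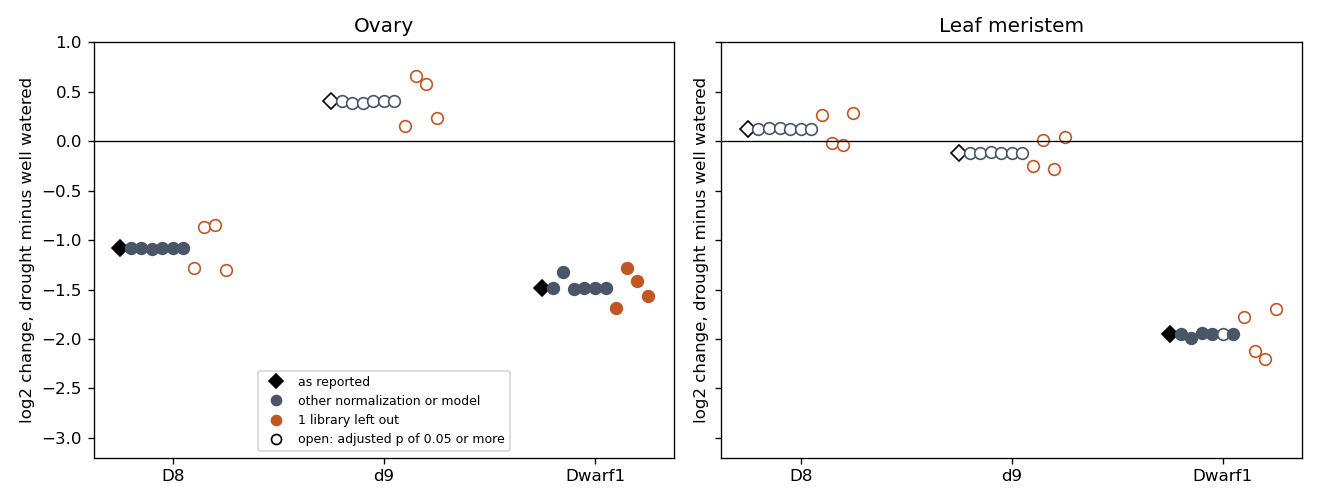
Log2 change, drought minus well watered (vertical axis), of each gene in the ovary and the leaf meristem as reported (diamond), under other normalizations, filters or models (grey) and with 1 library left out (orange), all at a pseudocount of 1 FPKM; open symbols have an adjusted p of 0.05 or more. Dwarf1 stayed below 0 throughout and filled in the ovary, while D8 in the ovary ranged from -1.30 to -0.85 with open symbols whenever a library was left out.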

How the data were processed

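Polyadenylated RNA of 8 libraries was sequenced on an Illumina Genome Analyser, per the labels' protocols. The authors deposited FPKM in 1 table per tissue, with 26380 IDs for ovary and 25873 for leaf. CASAVA 1.8, TopHat 1.2.0 and Cufflinks 1.0.2 are named in the submitters' processing notes. No coordinates are printed, because the sources used here give no build, annotation or settings. The series text counts 1 biological replicate per condition while titles and protocol give 2, and each column was used as a replicate. Names came from RefSeq synonyms of the Zm-B73-REFERENCE-NAM-5.0 assembly, matching 16217 ovary and 16108 leaf IDs.

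Within each tissue limma 3.58.1 (R 4.3.3, eBayes with trend) was fitted to log2(FPKM + 1), keeping genes whose mean reached 1 FPKM. Benjamini-Hochberg adjustment ran over all genes tested, and a gene was called at an adjusted p under 0.05. The tissue difference used all 8 libraries and genes passing in both tables. Each tissue fit had 2 residual degrees of freedom plus a prior of 3.74 (ovary) or 2.42 (leaf), and the fit of the tissue difference 4 plus 3.35. Ratios within a library were tested by exact two-sided permutation (scipy 1.17.1). The fit was tested on simulated data. Alternatives were other pseudocounts, filters, normalizations and models, a replicate block, and each library left out, where the lone library of its condition is assumed to vary like the others. The text names the 3 genes, all matched gibberellin genes, the 3 largest called changes each way in the GRAS list and the 3 most similar symbols per gene. SCR, SCL30, CPS1's alternatives and GRAS79 were singled out after their values were seen. The members and lists were chosen with earlier results of these data known.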

Additional observations from a re-analysis of the deposited data

Results flagged for a closer look

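Of 12 IDs of the gibberellin and GRAS lists tested for a difference between the tissues, limma called 5, against 47.8% of all 20252 genes tested. The 12 include the 2 SCL30 IDs, which hold the same values, and ham101, which was called. As said above, these are also names of other proteins. Each log2 difference is given as ovary minus leaf. D8 had a difference of -1.20 and the GRAS gene GRAS19 (GRMZM2G172657) one of -2.22 (limma adjusted p = 0.0188 and 0.00184). The synthesis gene an1 had a difference of 2.11 (limma adjusted p = 0.0165) and ham101 one of 0.94 (0.0101). GRAS79 (GRMZM2G037792) had a difference of 0.70 (limma adjusted p = 0.0352), from an ovary log2 change of 0.11 and a leaf log2 change of -0.59, neither called. The call of GRAS79 was lost in 6 of 8 cases with 1 library left out (adjusted p 0.0242 to 0.101 over all 8). GRAS19 and ham101 were called in all 8 such cases.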

How the results depend on the processing

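With 1 library left out, which also lowers the residual degrees of freedom, limma called 2257 to 3791 rising and 3543 to 4804 falling ovary genes (5614 and 7004 with all), 0 to 1509 and 0 to 479 leaf genes (527 and 203), and in the tissue difference 3100 to 4734 with a higher and 3626 to 5292 with a lower change in the ovary (4668 and 5010). On the log2 scale, the ranges were -1.30 to -0.85 for D8 in the ovary, -0.043 to 0.29 in the leaf and -1.43 to -0.97 for its tissue difference. For d9 in the leaf the range was -0.28 to 0.047, for Dwarf1 in the leaf -2.20 to -1.69, and for the leaf change of the D8 to d9 ratio -0.0365 to 0.53. CPS1 ranged from -0.19 to 0.22 in the ovary, -0.027 to 0.24 in the leaf and -0.30 to 0.11 in the difference, and GRAS79 in the ovary from -0.057 to 0.27. Dwarf1 in the leaf was not called at a pseudocount of 0.1 FPKM (-4.01) or 0.01 FPKM (-5.77), where its 0 in drought 2 weighs more. CPS1 turned to -0.0050 in the ovary under upper quartile scaling and to 0.10 in the difference under quantile normalization. Quantile normalization moved the median log2 change of all genes from -0.05 to 0.06 in the ovary and from 0.02 to 0.13 in the difference, and D8 and Dwarf1 kept their ovary calls. A joint fit called 823 rising and 367 falling genes in the leaf, and the cause was not tested.

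Replicate numbers do not show a pairing: same-numbered deviations correlated, over all genes tested, at 0.112 for ovary and -0.175 for leaf libraries. The replicate block gave 230 rising and 121 falling calls in the leaf and a Dwarf1 change of -1.95 there (limma adjusted p = 0.0687). It added calls for an1 and SCR in the ovary and lost those of GRAS19 in the leaf and of the GRAS79 difference. The crossed pairing in the leaf, tried after seeing the data, gave 425 and 186. A mean of at least 5 FPKM left Dwarf1 out. The other 232 values for the main results kept direction and side of the threshold, or came within 1.5 times for counts. They include the ratio tests, which could not reach an adjusted p under 0.05 with these numbers of libraries. For those tests the side of the threshold was fixed in advance.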
